A study of Mus musculus with 24 samples.

Results

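Lactate with Oxyrase and sodium pyruvate, a pair of treatments of activated mouse CD8 T cells were compared directly. The comparison used 6 of the 24 libraries of the series, 3 RNA-seq libraries per treatment, all taken by their labels; 12 of the 24 libraries measured RNA, and the ATAC-seq libraries were not analysed here. The cells were CD8 T cells of C57BL/6J mice, purified from spleen and lymph nodes with magnetic beads and cultured with anti-CD28 and interleukin-2 for 3 days. All groups received their addition from day 2 to day 3 of that culture: lactate with Oxyrase, sodium pyruvate, lactate alone, or sodium chloride (NaCl) as the salt control. The dose given for lactate, pyruvate and NaCl is 20 mM; the protocol does not restate a lactate dose, or give an amount of Oxyrase, for the group that received both. Oxyrase and the salt differ together between both compared groups, and no group had pyruvate with Oxyrase or Oxyrase alone, so their shares in a difference cannot be told apart; levels with lactate alone and with NaCl are given beside the results as values. Whether replicates are different mice or different cultures is not stated in the labels, so a p-value here reflects only how much these samples varied, which may be technical.

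Oxyrase is a preparation of bacterial membranes whose enzymes use donors such as lactate to consume the oxygen dissolved in a medium. Cells sense low oxygen through prolyl hydroxylases, which need oxygen to mark hypoxia-inducible factors (HIF) for destruction, and they sense amino acid shortage and other stresses through kinases that raise translation of the transcription factor ATF4. Activated CD8 T cells express cytotoxic granule proteins such as perforin and granzymes, cytokines such as interferon gamma, and receptors that restrain them such as TIM-3 and CTLA-4. Pyruvate can be reduced to lactate, and lactate oxidized to pyruvate, by lactate dehydrogenase.

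The 3 libraries with lactate and Oxyrase held 27579182 to 33485015 counts each and the 3 with pyruvate 28770619 to 39643683. A filter on low counts left 14749 of 55401 genes, and edgeR's quasi-likelihood test on all 12 RNA libraries compared the groups. The filter keeps a gene that reaches its limit in a single group. Members of a list kept in that way add to its counts in the direction of that group. Values are CPM (counts scaled to a common library size after TMM normalization), and changes are log2 fold changes of lactate with Oxyrase over pyruvate, ± standard error, with Benjamini-Hochberg adjusted p-values over all 14749 genes. Verbs of change (rose, fell) are kept for genes with an adjusted p under 0.05. A gene is called alike within 1.5-fold where the whole 95% interval of its change lay within 1.5-fold either way. On the leading principal component of the RNA libraries, which held 45.2% of the variance, the libraries with lactate and Oxyrase lay at 52.2 to 56.3 and the pyruvate libraries at -8.32 to -3.28. The lactate libraries lay at -24.9 to -22 and the NaCl libraries at -26.1 to -25 on the same axis.

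Of the genes tested, 6513 (44.2%) differed between lactate with Oxyrase and pyruvate: 3384 rose (22.9%) and 3129 fell (21.2%). Most of these changes were small, with a median absolute change of 0.33 on the log2 scale, and 888 genes (6.02%) were called with a change of at least 1, of which 600 rose and 288 fell. In 8987 genes (60.9%) the groups were alike within 1.5-fold, including 4042 genes that were called and 4945 that were not. A further 3291 genes were neither called nor alike, so the data do not place them; 3268 of these had a mean level under 3 log2 CPM. The groups did not overlap in CPM in 7839 genes (53.1%). These shares are the background against which counts in gene lists are read. In the same model 50.8% of genes were called for lactate with Oxyrase against NaCl and 15.7% for pyruvate against NaCl; those 2 comparisons share the NaCl libraries, so their values are only set side by side.

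**Figure D1:**
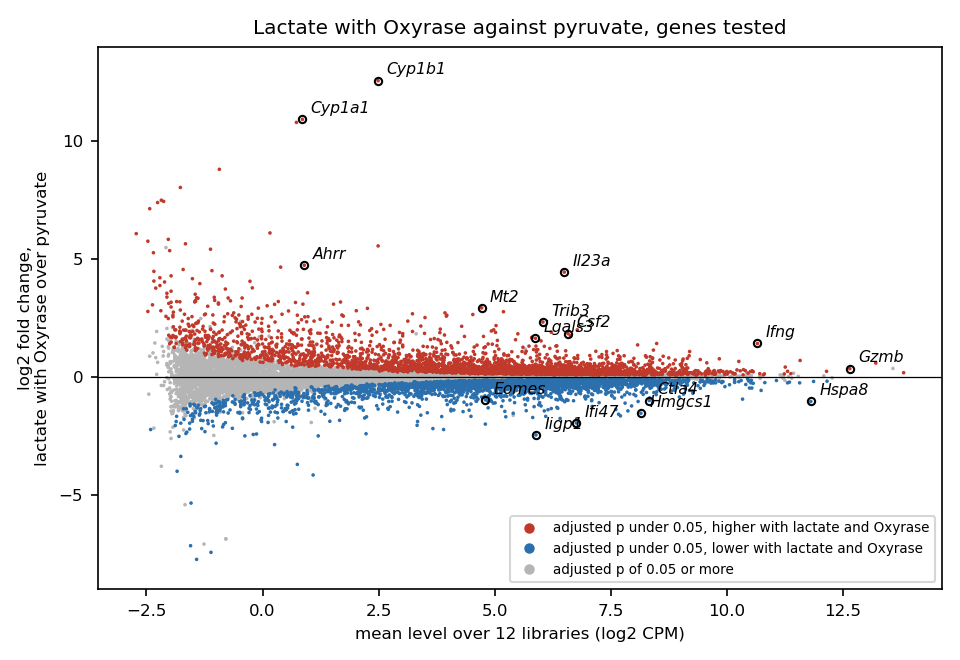
Log2 fold change of lactate with Oxyrase over pyruvate against the mean log2 CPM over 12 libraries, 1 point per gene tested; red and blue points had an adjusted p under 0.05. Il23a stands highest among well-expressed genes at 4.45, and Cyp1b1 and Cyp1a1, which had no count in the pyruvate libraries, stand at the top with fitted values that depend on the model's prior count.

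The genes that separated the treatments most had varied roles. Among called genes with a mean of at least 3 log2 CPM and groups that did not overlap, the 12 highest were Il23a, Mt2, Inhba, Aldh1l2, Lrp1, Nupr1, Soat2, Slc7a11, Il1a, Trib3, Il3 and Ptprn, at changes of 4.45 to 2.16. The 12 lowest were Iigp1, Itih5, Serpina3f, Tnip3, Ifi203, Ifi47, Tead1, Tgtp1, Tgtp2, Serpina3g, Sntb1 and Mvd, at -2.46 to -1.67. Il23a, which encodes the p19 subunit of interleukin-23, had 387, 285 and 308 CPM with lactate and Oxyrase, against 13.7, 14.8 and 16.5 CPM with pyruvate. The groups stood far apart, with a change of 4.45 ± 0.12 (edgeR adjusted p = 3.24e-14), and the means with lactate alone (10.4 CPM) and NaCl (12.8 CPM) lay near the pyruvate level. Serpina3f and Serpina3g, Tgtp1 and Tgtp2, and the metallothioneins Mt1 and Mt2 are close copies of each other, so reads may be divided unevenly within each pair and their single values are uncertain.

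**Figure D2:**
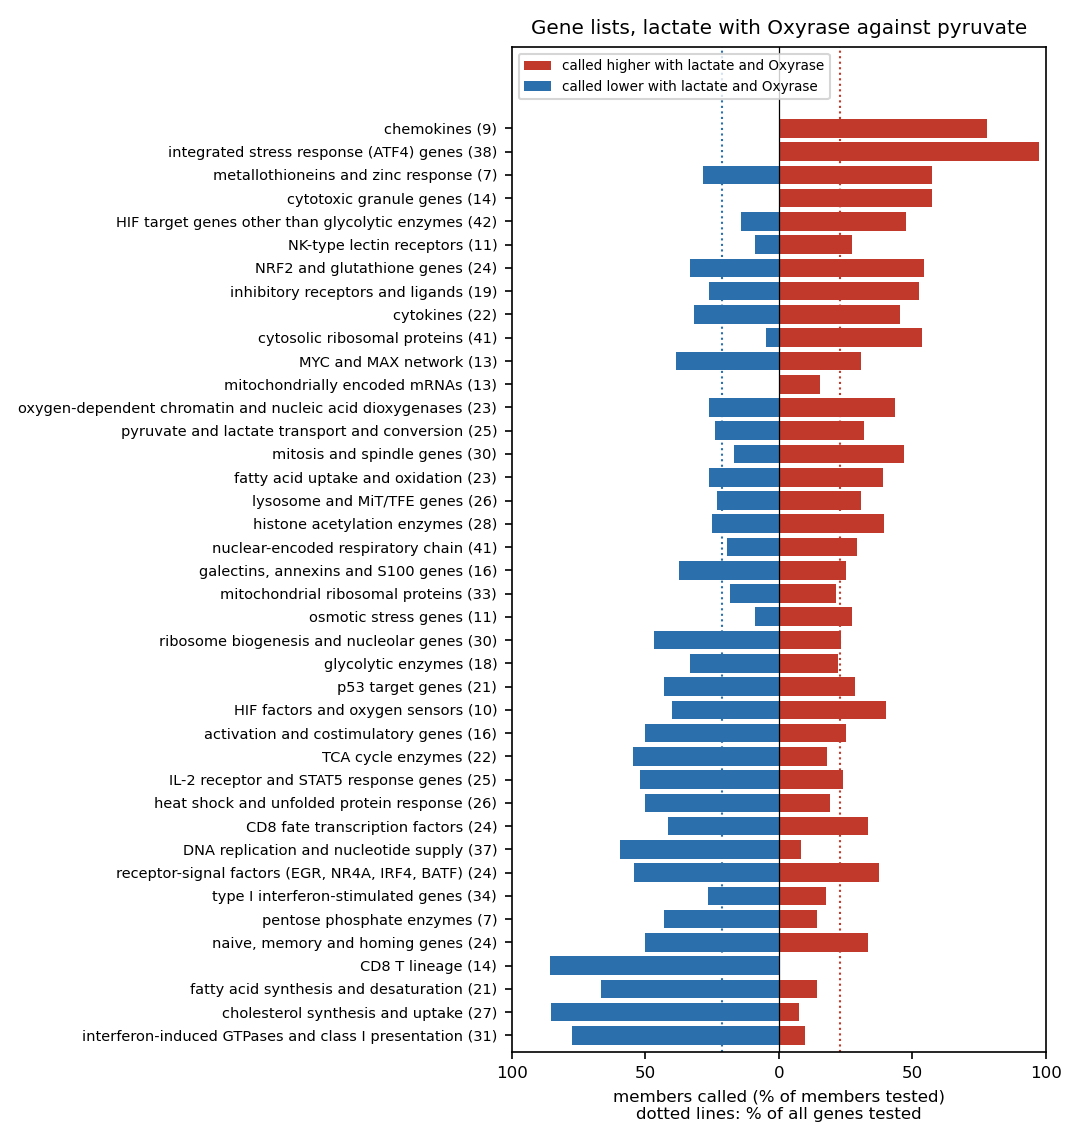
Share of each gene list's tested members (number in brackets) that were called higher (red, to the right) or lower (blue, to the left) with lactate and Oxyrase than with pyruvate; dotted lines give the shares of all genes tested, 22.9% higher and 21.2% lower. The list of ATF4 genes reaches furthest to the right, with 37 of 38 members, and the cholesterol and interferon GTPase lists reach far to the left, with 23 of 27 and 24 of 31.

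Cytokine genes moved in both directions, with interferon gamma and GM-CSF higher with lactate and Oxyrase. Of 22 tested cytokine genes 10 rose, 7 fell and 9 were alike within 1.5-fold (median change 0.14, against 0.00 over all genes tested). Ifng, interferon gamma, had 3202, 3517 and 3511 CPM with lactate and Oxyrase, against 1121, 1374 and 1333 CPM with pyruvate. The groups did not overlap, and the change was 1.42 ± 0.07 (edgeR adjusted p = 3.19e-11); the mean was 1001 CPM with lactate alone and 799 CPM with NaCl. Csf2, the growth factor GM-CSF, had 278, 221 and 276 CPM with lactate and Oxyrase, against 58.4, 81.6 and 76.3 CPM with pyruvate. Its lowest library with lactate and Oxyrase was well above the highest with pyruvate (change 1.84 ± 0.10, edgeR adjusted p = 1.64e-10). Il3, the hematopoietic growth factor interleukin-3, rose by 2.18 ± 0.11. Il24 and Il22 also rose, both at low levels, with means of 3.31 CPM against 0.402 CPM for Il24. Il22 had means of 0.681 CPM against 0.0337 CPM, and only the lactate with Oxyrase libraries carried it past the low-count filter. Spp1, osteopontin, had 192, 153 and 172 CPM with lactate and Oxyrase, against 90.2, 102 and 100 CPM with pyruvate, and rose by 0.82 ± 0.07. In bulk libraries like these, fewer cells that express a gene and less RNA of it per cell cannot be told apart.

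The cytokines that fell were members of the tumour necrosis factor family and 2 growth factors. Tnfsf10, the death ligand TRAIL, had 9.41, 11.5 and 10.6 CPM with lactate and Oxyrase, against 26.8, 28.3 and 28.2 CPM with pyruvate, a change of -1.40 ± 0.09. Ltb, lymphotoxin beta, changed by -1.23 ± 0.09 and Csf1, the macrophage growth factor, by -1.58 ± 0.19; the other members that fell were Tnfsf9, Tnfsf14, Tnfsf8 and Lif. Tnf and Il2 were not called and were alike within 1.5-fold. Tnf had 52.3, 53.6 and 62.8 CPM with lactate and Oxyrase, against 56.1, 64.4 and 62.5 CPM with pyruvate, and the interval of its change ran from -0.26 to 0.03. Without replicate 3 of lactate with Oxyrase, Tnf fell (edgeR adjusted p = 0.0224).

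The cytotoxic granule genes that were called were higher with lactate and Oxyrase. Of 14 tested members 8 rose and 0 fell (background 22.9% and 21.2%), with a median change of 0.31. The 9 members alike within 1.5-fold are a share near that of all genes tested (60.9%). Prf1, the pore-forming protein perforin, had 442, 431 and 448 CPM with lactate and Oxyrase, against 245, 300 and 301 CPM with pyruvate. The groups did not overlap and the change was 0.64 ± 0.07 (edgeR adjusted p = 1.69e-06). Gzmb, granzyme B, had 8923, 7875 and 7939 CPM with lactate and Oxyrase, against 6134, 6630 and 6712 CPM with pyruvate; it rose by 0.35 ± 0.07 and was also alike within 1.5-fold. Gzmc, a granzyme encoded beside Gzmb, rose by 1.46 ± 0.12 at lower levels, with 17.7, 19.6 and 16.5 CPM against 6.88, 5.82 and 6.86 CPM. Gzma, granzyme A, rose at very low levels, with 0.852, 0.860 and 0.698 CPM with lactate and Oxyrase, against 0.172, 0 and 0.173 CPM with pyruvate. Only the lactate with Oxyrase libraries carried Gzma past the low-count filter, so its place among the 8 that rose is no separate support.

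Several genes that both treatments raised over NaCl stood at nearly the same level in both. Serpinb9, the inhibitor that protects cells from their own granzyme B, had 631, 569 and 572 CPM with lactate and Oxyrase, against 523, 583 and 565 CPM with pyruvate. The libraries overlapped and the interval of the change ran from -0.03 to 0.19; against NaCl the change was 0.79 with lactate and Oxyrase and 0.70 with pyruvate. Serpinb6b, a related serpin, was likewise alike (change 0.05, interval -0.06 to 0.16), with 0.71 and 0.66 against NaCl. Ccl4, an inflammatory chemokine, had 300, 310 and 381 CPM with lactate and Oxyrase, against 286, 336 and 352 CPM with pyruvate (interval -0.17 to 0.23). Klrk1, the activating receptor NKG2D, changed by 0.05 (interval -0.07 to 0.17), with 0.59 and 0.54 against NaCl. Klrc1, the receptor NKG2A, rose by only 0.20 ± 0.04 between the treatments, whereas its change against NaCl was 1.44 with lactate and Oxyrase and 1.24 with pyruvate. Since both changes against NaCl share the NaCl libraries, they are not independent of each other.

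Other chemokines were higher with lactate and Oxyrase. Of 9 tested chemokine genes 7 rose and 0 fell (median change 0.94). Ccl3, a close relative of Ccl4, had 1321, 1269 and 1384 CPM with lactate and Oxyrase, against 711, 968 and 940 CPM with pyruvate, a change of 0.60 ± 0.08. Ccl9 had 94.2, 82.5 and 101 CPM with lactate and Oxyrase, against 17.3, 26.9 and 25.5 CPM with pyruvate, and rose by 2.00 ± 0.12. Ccl5 rose by 1.37 ± 0.20, and Ccl22 and Cxcl16 rose at means of 2.22 and 1.82 CPM, against 0.796 and 0.746 CPM. Xcl1, which attracts cross-presenting dendritic cells, rose by 0.25 ± 0.08 and was alike within 1.5-fold; its call was lost without replicate 1 of pyruvate (edgeR adjusted p = 0.0937) and without replicate 3 of lactate with Oxyrase (0.0907). Pyruvate replicate 1 was the lowest of its group in most of these genes, Ifng, Csf2, Prf1, Ccl3 and Ccl9 among them, and the calls of those 5 genes held without it.

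**Figure D3:**
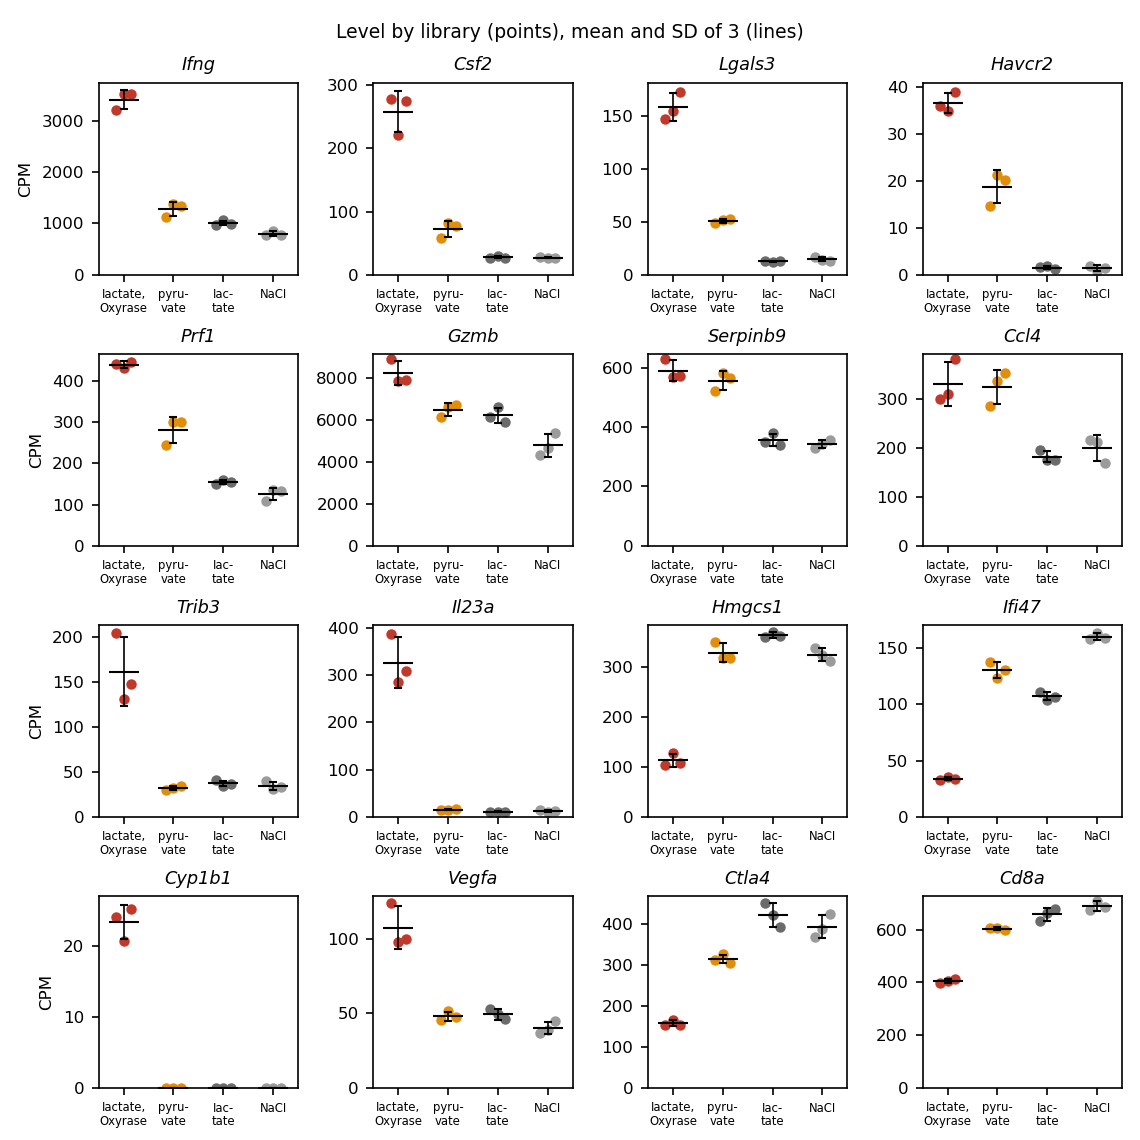
CPM of 16 genes in each of 12 RNA libraries (points), with the mean and SD of the 3 libraries of a group (lines), in the order lactate with Oxyrase, pyruvate, lactate, NaCl; each axis starts at 0. Ifng, Csf2 and Lgals3 stand highest with lactate and Oxyrase and next with pyruvate, Serpinb9 and Ccl4 overlap between these treatments, and Trib3, Il23a and Cyp1b1 stand apart with lactate and Oxyrase alone.

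Galectin-3 and TIM-3 followed the pattern of a higher level with lactate and Oxyrase and an intermediate one with pyruvate. Lgals3, galectin-3, had 147, 155 and 173 CPM with lactate and Oxyrase, against 48.6, 51.2 and 52.2 CPM with pyruvate, a change of 1.64 ± 0.07 (edgeR adjusted p = 1.14e-11); the means were 12.6 CPM with lactate alone and 14.5 CPM with NaCl. Havcr2, which encodes TIM-3, had 35.9, 35.0 and 39.0 CPM with lactate and Oxyrase, against 14.7, 21.3 and 20.2 CPM with pyruvate. It rose by 0.97 ± 0.13 (edgeR adjusted p = 1.66e-05), and its means with lactate alone and NaCl were 1.47 and 1.34 CPM. Cd36, a fatty acid receptor, rose by 1.06 ± 0.09, with means of 29.7 CPM with lactate and Oxyrase against 14.2 CPM with pyruvate. Lgals1, galectin-1, went the other way, with 273, 306 and 303 CPM with lactate and Oxyrase, against 457, 445 and 497 CPM with pyruvate (change -0.66 ± 0.05). Vim, the filament protein vimentin, and S100a4, a calcium-binding protein, also fell, by 0.73 ± 0.06 and 0.79 ± 0.23 on the log2 scale. Against NaCl these 3 genes rose with pyruvate, by 0.74 for Lgals1, 0.60 for Vim and 1.24 for S100a4, and none was called with lactate and Oxyrase, at 0.08, -0.12 and 0.45 (edgeR adjusted p = 0.171, 0.0832 and 0.157).

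Inhibitory receptors moved in both directions. Of 19 tested receptors and ligands 10 rose, 5 fell and 11 were alike within 1.5-fold (background 22.9%, 21.2% and 60.9%). Among those that rose, Cd244a would not have passed the low-count filter without the lactate with Oxyrase libraries, so it is no separate support. Its call was lost without replicate 2 of pyruvate (edgeR adjusted p = 0.0957) and without replicate 2 of lactate with Oxyrase (0.111). Pdcd1, the receptor PD-1, had 93.7, 91.2 and 90.9 CPM with lactate and Oxyrase, against 92.6, 96.4 and 95.7 CPM with pyruvate, and its change lay between -0.14 and 0.04. Lag3 rose by 0.30 ± 0.05 and was alike within 1.5-fold. Ctla4 fell: it had 153, 166 and 153 CPM with lactate and Oxyrase, against 311, 326 and 305 CPM with pyruvate (change -1.0 ± 0.06, edgeR adjusted p = 3.51e-10), and means of 421 CPM with lactate alone and 393 CPM with NaCl. Cd101 fell by 1.74 ± 0.20. Costimulatory receptors also fell: Icos had 92.0, 108 and 102 CPM with lactate and Oxyrase, against 286, 269 and 265 CPM with pyruvate (change -1.44 ± 0.05), and Cd226 changed by -1.05 ± 0.07. Of 16 tested activation and costimulatory genes 8 fell and 4 rose, among those that rose Tnfrsf8, the receptor CD30, by 1.85 ± 0.20.

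Transcription factors of CD8 T cell fate also parted. Of 24 tested factors 8 rose, 10 fell and 8 were alike within 1.5-fold (median change -0.15). Among factors of effector cells, Zeb2 had 98.6, 95.5 and 93.1 CPM with lactate and Oxyrase, against 48.6, 60.7 and 54.0 CPM with pyruvate (change 0.81 ± 0.07). Prdm1, which encodes BLIMP-1, rose by 0.74 ± 0.17 at means of 6.15 against 3.69 CPM. Zbtb7b, the factor ThPOK of CD4 T cells, had 47.4, 36.9 and 45.0 CPM with lactate and Oxyrase, against 9.26, 9.95 and 9.95 CPM with pyruvate, a change of 2.15 ± 0.09. Tbx21, T-bet, and Tcf7, TCF-1, were alike within 1.5-fold at changes of -0.04 and 0.02. Eomes, a factor of memory and exhausted cells, had 20.0, 19.8 and 18 CPM with lactate and Oxyrase, against 34.8, 39.1 and 39.5 CPM with pyruvate (change -0.97 ± 0.08). Tox, a factor of exhausted cells, fell by 0.71 ± 0.08, and Bach2, a repressor that restrains effector differentiation, by 0.76 ± 0.04. Klf2, which drives genes of lymph node homing, fell by 1.09 ± 0.19. In the list of naive, memory and homing genes 12 of 24 tested members fell and 8 rose, including Itgae, the integrin CD103, at 1.65 ± 0.21.

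**Figure D4:**
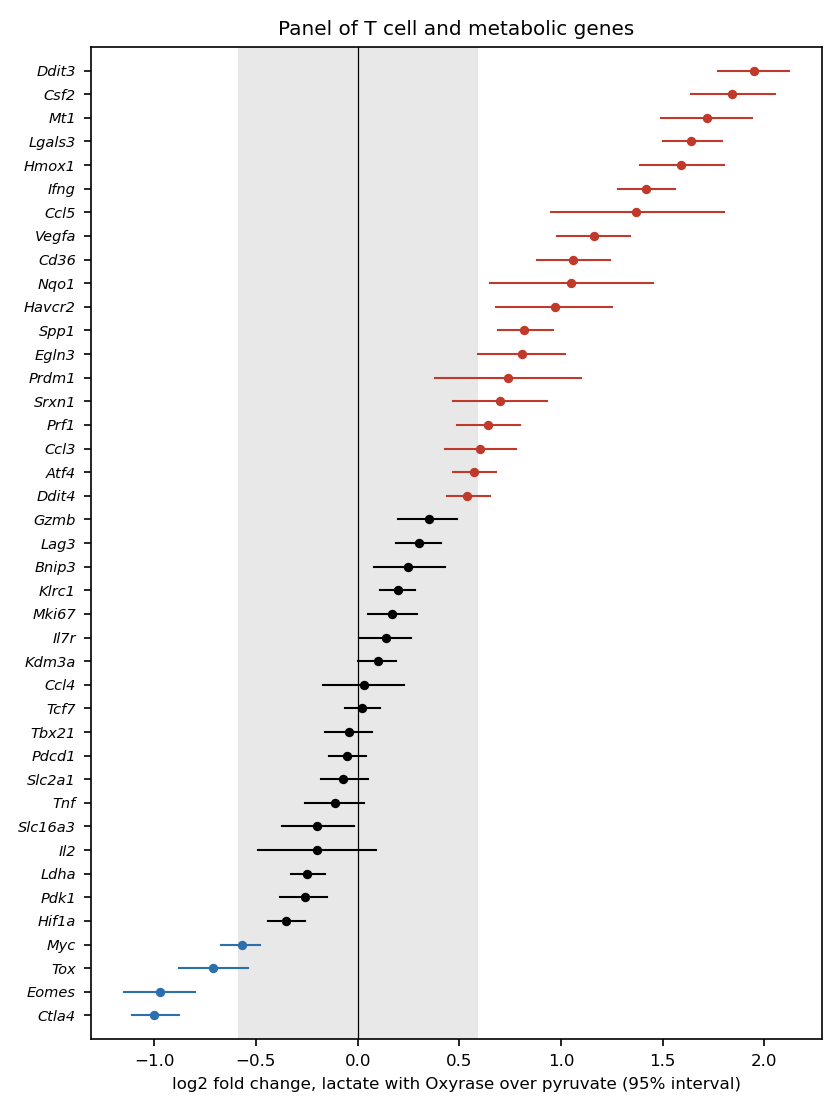
Log2 fold change of lactate with Oxyrase over pyruvate with its 95% interval for a panel of T cell and metabolic genes; the grey band marks 1.5-fold either way, black genes lie wholly inside it, and red and blue genes do not. Ddit3 and Csf2 stand highest at 1.95 and 1.84, Gzmb, Ccl4, Pdcd1, Tbx21 and Tnf lie within the band, and Ctla4 stands lowest at -1.0.

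Nearly every tested gene of the ATF4 list was higher with lactate and Oxyrase. Of 38 tested ATF4 genes 37 rose, 0 fell and 4 were alike within 1.5-fold (median change 0.93), and 37 were called under each of the alternatives computed. Against NaCl, 36 rose with lactate and Oxyrase (background 26.5%), whereas with pyruvate 2 rose and 3 fell (background 9.4% and 6.28%). Atf4 itself had 762, 656 and 672 CPM with lactate and Oxyrase, against 454, 467 and 484 CPM with pyruvate (change 0.57 ± 0.05). Its partner Ddit3, CHOP, had 74.3, 60.8 and 64.2 CPM with lactate and Oxyrase, against 19.1, 16.7 and 15.8 CPM with pyruvate (change 1.95 ± 0.08, edgeR adjusted p = 1.04e-11). Trib3, a pseudokinase that feeds back on the pathway, had 204, 131 and 148 CPM with lactate and Oxyrase, against 29.6, 32.1 and 34.3 CPM with pyruvate. The groups did not overlap and the change was 2.33 ± 0.13; replicate 1 of lactate with Oxyrase was the highest, and without it the change was 2.13. The same library was highest for Nupr1, a stress-induced chromatin protein (61.0, 38.7 and 40.6 CPM, against 6.94, 7.90 and 7.90 CPM with pyruvate), and for Slc7a11, the cystine transporter (41.8, 20.8 and 27.9 CPM, against 5.96, 4.94 and 4.85 CPM).

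The ATF4 genes that rose covered several tasks. Asns, asparagine synthetase, had 592, 422 and 473 CPM with lactate and Oxyrase, against 186, 199 and 193 CPM with pyruvate (change 1.36 ± 0.08). Cth, which makes cysteine from cystathionine, rose by 2.00 ± 0.09, Chac1, which degrades glutathione, by 1.53 ± 0.11, and Gpt2, the mitochondrial alanine transaminase, by 1.68 ± 0.13. Aldh1l2, a mitochondrial folate enzyme outside the list, rose by 2.72 ± 0.17. Sesn2, which restrains mTORC1, rose by 1.31 ± 0.08. Cbs, which makes cystathionine, was the member that was not called; it had 1.44, 2.17 and 1.76 CPM with lactate and Oxyrase, against 1.63, 1.52 and 1.53 CPM with pyruvate.

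The letters TGATGNAA of the ATF4 element, searched on both strands, lay within the 250 bases before the start in 9 of 37 promoters of ATF4 genes (24.3%), against 3.45% of all 32851 promoters in the RefSeq table (GRCm38.p6), which held 33 of the 38 tested genes, some with more than 1 start. With 100 bases the shares were 8.11% and 1.54%. The 3 called members with the largest changes and a match are shown. Sequences are on the gene's strand, 5′ to 3′, and capitals mark the match nearest the start, which reads on the opposite strand in all 3. The Slc7a11 stretch holds a further match in lower case, on the strand of the gene. The stretches lie at chr7:126625543-126625610 (minus strand), chr3:50443623-50443690 (minus strand) and chr19:27216790-27216857 (plus strand), in that order. A match describes the letters and is not evidence of binding.
Nupr1: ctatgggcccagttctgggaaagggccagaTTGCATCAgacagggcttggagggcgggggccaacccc
Slc7a11: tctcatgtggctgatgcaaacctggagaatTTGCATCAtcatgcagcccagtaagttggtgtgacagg
Vldlr: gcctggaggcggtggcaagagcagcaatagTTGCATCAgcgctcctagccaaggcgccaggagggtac

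Between these treatments hypoxia genes rose in part, and glycolytic genes did not rise with them as a group. Of 42 tested HIF target genes outside glycolysis 20 rose, 6 fell and 26 were alike within 1.5-fold (median change 0.21). Vegfa, the vascular growth factor, had 124, 98.1 and 100 CPM with lactate and Oxyrase, against 45.4, 51.4 and 47.7 CPM with pyruvate (change 1.16 ± 0.09, edgeR adjusted p = 9.27e-09). Ero1l, an oxidase of disulfide formation, had 663, 712 and 725 CPM with lactate and Oxyrase, against 249, 287 and 248 CPM with pyruvate (change 1.42 ± 0.06). P4ha2, a collagen prolyl hydroxylase, rose by 1.59 ± 0.17, and Egln3, an oxygen-sensing prolyl hydroxylase, by 0.81 ± 0.10. Stc2, which is in the ATF4 list too, rose by 1.63 ± 0.14, and Tmem45a and Selenbp1 rose at means of 1.86 and 2.09 CPM, against 0.327 and 0.650 CPM. Other classical targets were level: Slc2a1, the glucose transporter GLUT1, had 155, 163 and 176 CPM with lactate and Oxyrase, against 168, 182 and 168 CPM with pyruvate (interval -0.18 to 0.05). Pdk1, which inhibits pyruvate dehydrogenase, fell by 0.26 ± 0.05 and Ldha, lactate dehydrogenase A, by 0.25 ± 0.04, both alike within 1.5-fold. Hif1a fell by 0.35 ± 0.04. Of 18 tested glycolytic enzymes and transporters 4 rose and 6 fell, and 16 were alike within 1.5-fold. Slc2a3, the transporter GLUT3, stood out with 320, 377 and 355 CPM, against 184, 203 and 176 CPM with pyruvate. Against NaCl, 9 of the 18 glycolytic genes rose and 3 fell with lactate and Oxyrase (background 26.5% and 24.3%). With pyruvate 8 rose and 0 fell (background 9.4% and 6.28%). Of the 42 HIF targets, 27 rose and 6 fell against NaCl with lactate and Oxyrase, and 14 rose and 1 fell with pyruvate.

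The hypoxia response core, ACGTG or GCGTG on either strand within 250 bases, was found in 39 of 49 promoters of 35 HIF targets (79.6%), against 38.6% of all promoters. With 100 bases the shares were 53.1% and 21.9%. Among the 19 promoters of members that rose, the core was in 78.9% with 250 bases and 31.6% with 100. ACGTG is also part of the E-box CACGTG, and promoters differ in base composition. The 3 called members of largest change with a match are shown, with capitals marking the match nearest the start. They lie at chr16:56886295-56886359 (minus strand), chr3:94932876-94932940 (plus strand) and chr11:31370258-31370311 (minus strand) of GRCm38.p6, in that order.
Tmem45a: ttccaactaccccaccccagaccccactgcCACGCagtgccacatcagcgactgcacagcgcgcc
Selenbp1: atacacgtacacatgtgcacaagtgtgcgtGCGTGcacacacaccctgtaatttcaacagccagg
Stc2: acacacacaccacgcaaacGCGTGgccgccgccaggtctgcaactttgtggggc

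The aryl hydrocarbon receptor is a ligand-activated factor that pairs with the HIF partner ARNT and drives xenobiotic metabolism. Its targets Cyp1a1 and Cyp1b1 were detected with lactate and Oxyrase and had no count with pyruvate. These 9 genes were chosen after the values of Cyp1a1 and Cyp1b1 were seen, so their count is a description: 6 of 8 tested genes rose and 1 fell. Of those that rose, Cyp1a1, Cyp1b1 and Ugt1a6a passed the low-count filter through the lactate with Oxyrase libraries alone. Their place among the 6 is no separate support. Cyp1b1, a cytochrome P450 induced by the receptor, had 24.2, 20.8 and 25.3 CPM with lactate and Oxyrase, and no count in any pyruvate, lactate or NaCl library. Over the group it had 2094 counts, and against the limit that a count of 0 allows (3 counts over the 3 pyruvate libraries, 0.0292 CPM) it was at least 794-fold higher; the limit covers counting error only. Cyp1a1, its close relative, had 7.56, 7.19 and 7.83 CPM with lactate and Oxyrase, against 0 in each pyruvate library, at least 254-fold higher; 1 count was found in the NaCl libraries. Ahrr, the repressor induced by the receptor, had 7.11, 6.09 and 7.47 CPM with lactate and Oxyrase, against 0.172, 0.202 and 0.416 CPM with pyruvate (change 4.74, edgeR adjusted p = 6.13e-10). Tiparp, a poly(ADP-ribose) polymerase induced by it, had 36.5, 26.4 and 27.1 CPM with lactate and Oxyrase, against 13.7, 15.5 and 14.8 CPM with pyruvate (change 1.03). Nqo1 and Ugt1a6a also rose, and Ugt1a6a shares exons with other Ugt1a genes, so its value is uncertain. Ahr, the receptor itself, fell: it had 4.81, 6.16 and 6.04 CPM with lactate and Oxyrase, against 10.2, 9.34 and 10.9 CPM with pyruvate (change -0.83, edgeR adjusted p = 0.000117). Its means were 5.85 CPM with lactate alone and 5.27 CPM with NaCl; against NaCl it rose with pyruvate (0.93) and was not called with lactate and Oxyrase (0.10, edgeR adjusted p = 0.624). Aldh3a1 was not called and Cyp1a2 had no count in any library.

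The letters TNGCGTG of the xenobiotic response element, on either strand, lay within 250 bases of the start in 1 of 6 promoters of these genes, that of Ahrr, against 4.10% of all promoters (1.73% with 100 bases). This stretch is shown because it is the only promoter of the set with a match. It lies at chr13:74292332-74292390 (minus strand) of GRCm38.p6, and the capitals mark the match, which holds the hypoxia core GCGTG within it.
Ahrr: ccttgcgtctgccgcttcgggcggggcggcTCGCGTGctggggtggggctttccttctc

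**Figure D5:**
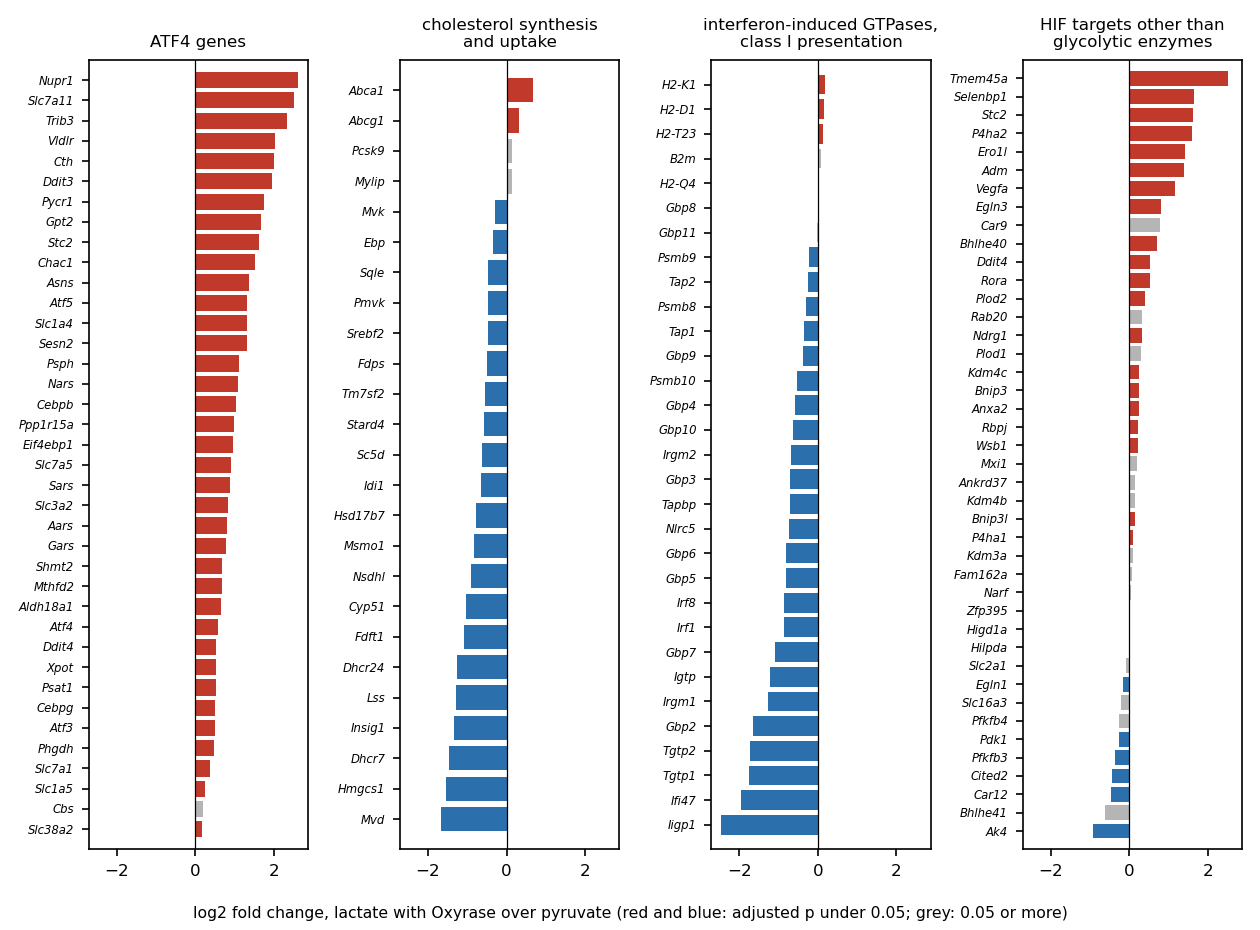
Log2 fold change of lactate with Oxyrase over pyruvate for tested members of 4 gene lists, apart from those not reported here; red and blue bars had an adjusted p under 0.05 and grey bars did not. ATF4 genes lie to the right up to 2.62 for Nupr1, cholesterol and interferon GTPase genes lie mostly to the left down to -1.67 for Mvd and -2.46 for Iigp1, and HIF targets spread from 2.51 for Tmem45a to -0.92 for Ak4.

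Redox, metal and chaperone genes did not move as a block. Of 24 tested NRF2 and glutathione genes 13 rose and 8 fell (median change 0.15). Hmox1, heme oxygenase, had 29.6, 24.1 and 24.9 CPM with lactate and Oxyrase, against 7.86, 8.43 and 9.84 CPM with pyruvate (change 1.59 ± 0.10). Nqo1, a quinone reductase, had 5.07, 4.85 and 5.67 CPM with lactate and Oxyrase, against 2.67, 2.56 and 2.29 CPM with pyruvate, and Srxn1, the sulfiredoxin that repairs oxidized peroxiredoxins, rose by 0.70 ± 0.11. Both were raised by pyruvate too, with changes against NaCl of 3.38 with lactate and Oxyrase and 2.33 with pyruvate for Nqo1, and of 3.13 and 2.43 for Srxn1. The antioxidant response core TGACNNNGC, which can overlap sites of AP-1 factors, was found on either strand within 250 bases in 18.5% of 27 promoters of 18 genes of the list, against 10.2% of all promoters (7.41% and 4.82% with 100 bases). Metallothioneins, which bind zinc and other metals, were higher with lactate and Oxyrase: Mt2 had 74.6, 65.0 and 80.7 CPM, against 9.78, 9.72 and 9.29 CPM with pyruvate (change 2.93 ± 0.08), and Mt1 rose by 1.72 ± 0.11. Of 26 tested heat shock and unfolded protein genes 13 fell and 5 rose. Hspa8, the constitutive chaperone HSC70, had 1948, 2068 and 2072 CPM with lactate and Oxyrase, against 4116, 4153 and 4279 CPM with pyruvate (change -1.04 ± 0.04, edgeR adjusted p = 1.51e-12).

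Sterol and fatty acid synthesis genes fell. Of 27 tested genes of cholesterol synthesis and uptake 23 fell and 2 rose (median change -0.66); against NaCl 23 fell with lactate and Oxyrase (background 24.3%) and 6 with pyruvate (background 6.28%). Hmgcs1, which makes HMG-CoA, had 104, 128 and 108 CPM with lactate and Oxyrase, against 351, 318 and 318 CPM with pyruvate (change -1.54 ± 0.06, edgeR adjusted p = 8.10e-12). The groups did not overlap, and the means were 365 CPM with lactate alone and 325 CPM with NaCl. Mvd, which acts later in the same pathway, had 7.70, 9.08 and 7.34 CPM with lactate and Oxyrase, against 28.1, 23.8 and 24.8 CPM with pyruvate. Abca1 and Abcg1, which export cholesterol, were the 2 members that rose, by 0.68 ± 0.16 for Abca1. Soat2, which esterifies cholesterol, had 49.3, 31.3 and 38.3 CPM with lactate and Oxyrase, against 6.45, 6.66 and 6.72 CPM with pyruvate (change 2.58 ± 0.13). In fatty acid synthesis 14 of 21 tested genes fell and 3 rose; Fasn, fatty acid synthase, had 397, 413 and 423 CPM with lactate and Oxyrase, against 677, 658 and 658 CPM with pyruvate, and the desaturase Fads2 and elongase Elovl6 changed by -1.54 ± 0.11 and -1.43 ± 0.08.

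The sterol response letters TCACNCCAC were found on either strand within 250 bases in 1 of 21 promoters of 18 genes of the cholesterol list (4.76%), against 1.05% of all promoters. With 100 bases it was found in 0 of 21, against 0.423% of all. It is that of Hmgcs1, shown as the called member with a match, at chr13:119690184-119690252 (plus strand) of GRCm38.p6 with the match in capitals.
Hmgcs1: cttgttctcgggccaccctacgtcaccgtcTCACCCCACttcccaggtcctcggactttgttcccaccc

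Interferon-inducible GTPases fell, while calls among classical type I interferon genes went both ways, at shares near those of all genes tested. Of 31 tested GTPases and genes of class I presentation 24 fell and 3 rose (median change -0.68). Iigp1, an immunity-related GTPase, had 17.3, 15.8 and 12.8 CPM with lactate and Oxyrase, against 88.1, 81.3 and 81.8 CPM with pyruvate (change -2.46 ± 0.09, edgeR adjusted p = 1.51e-12). Ifi47 had 32.8, 35.5 and 33.5 CPM with lactate and Oxyrase, against 138, 124 and 131 CPM with pyruvate. The guanylate-binding protein gene Gbp2 had 102 CPM in each library with lactate and Oxyrase, against 332, 314 and 312 CPM with pyruvate; its means were 163 CPM with lactate alone and 253 CPM with NaCl. Irf1 and Irf8, factors that drive such genes, fell by 0.86 ± 0.04 and 0.85 ± 0.03. Class I genes were close: H2-K1 rose by 0.17 ± 0.05, and B2m, their shared light chain, had a change of 0.09 (interval -0.01 to 0.20). Of 34 tested type I interferon-stimulated genes 9 fell and 6 rose (background 21.2% and 22.9%), and 12 were neither called nor alike. Against NaCl, 23 of the 34 fell and 2 rose with lactate and Oxyrase (background 24.3% and 26.5%). With pyruvate 16 fell and 0 rose (background 6.28% and 9.4%). Ifi203 had 9.63, 9.73 and 7.95 CPM with lactate and Oxyrase, against 40.1, 33.3 and 35.5 CPM with pyruvate. Isg15, among those that rose, changed by 1.35, but by 0.74 without replicate 1 of lactate with Oxyrase, and was then not called (edgeR adjusted p = 0.182). Its call was also lost without replicate 2 (0.0691) or 3 (0.0648) of pyruvate. Against NaCl Isg15 fell with pyruvate (-1.69) and was not called with lactate and Oxyrase (-0.34, edgeR adjusted p = 0.493).

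The core of the interferon-stimulated response element, GAAA followed by any 2 bases and GAAA on either strand, lay within 250 bases in 11 of 26 promoters of 22 genes of the GTPase and class I list (42.3%), against 2.98% of all promoters. With 100 bases the shares were 30.8% and 0.983%. The pair with a match and the largest falls, Tgtp1 and Tgtp2, is shown with the match in capitals. The near-identity of their stretches is visible letter by letter; they lie at chr11:48992284-48992353 and chr11:49064243-49064312 of GRCm38.p6, both on the minus strand.
Tgtp1: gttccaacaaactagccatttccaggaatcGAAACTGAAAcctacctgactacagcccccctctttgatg
Tgtp2: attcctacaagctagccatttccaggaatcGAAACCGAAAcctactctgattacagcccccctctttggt

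The labelled cell type was present in both groups, with lower lineage transcripts under lactate and Oxyrase. Of 14 tested genes of the CD8 T lineage 12 fell and 0 rose, 12 were alike within 1.5-fold, and their summed level was 3014 to 3137 CPM with lactate and Oxyrase, against 3741 to 3859 CPM with pyruvate. Cd8a had 399, 404 and 415 CPM with lactate and Oxyrase, against 607, 607 and 600 CPM with pyruvate (change -0.57 ± 0.03), while Cd3e changed by -0.17 ± 0.05. Among lists of markers of other cells, summed levels were highest for CD4 and regulatory T cells and for B and plasma cells. In the remaining lists they were lower. The summed level of the B and plasma cell list, of which 7 of 12 genes passed the filter, was 68.7 to 79.6 CPM with lactate and Oxyrase, against 150 to 154 CPM with pyruvate, most of it from Ighm (63.3, 73.4 and 70.7 CPM, against 149, 145 and 148 CPM). Of those 7 genes 4 fell and 1 rose: Ebf1, a B cell factor, rose by 1.62 ± 0.29 at means of 1.77 against 0.584 CPM, and Cd79b, a subunit of the B cell receptor, was not called (0.32 ± 0.15). The CD4 and regulatory T cell list of 7 genes summed to 225 to 232 CPM, against 338 to 361 CPM, mostly Ctla4; Foxp3 fell by 1.84 ± 0.21, and Cd4 was at 0.361 against 0.406 CPM and was not called. For myeloid and dendritic cells 3 of 16 genes passed the filter, and their sum was 5.15 to 6.98 CPM, against 3.15 to 4.06 CPM; Lyz2 had 0 counts, against 4 with pyruvate, and Cd209a had none in either. The NK list, with 3 of 8 genes, summed to 35.7 to 41.9 CPM, against 30.4 to 36.0 CPM, with Ncr1 at 0 in both. Gamma-delta markers, 4 of 7, summed to 1.3 to 2.68 CPM, against 1.87 to 2.67 CPM, and erythroid, platelet and stromal markers, 4 of 14, to 19.1 to 24.1 CPM, against 28.3 to 28.6 CPM. The part of these other cells in the changes above was not tested.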

How the data were processed

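Per the labels' protocols, poly(A) RNA was captured and libraries were made with an Illumina TruSeq v2 kit; strand use is not stated. The authors deposited estimated counts per gene (expected counts); per the submitters' processing notes RSEM 1.2.12, Bowtie2 2.2.0, Trimmomatic and edgeR 3.20.9 were used with genome build mm10. Among 235658 deposited values above 0, 99.24% lay within 1e-09 of a whole number. Fractions above 1 occurred in 460 genes, and 448 of these had only zeros in all libraries of 1 replicate number. The deposited table thus appears adjusted for replicate number, which would make the spread, and the p-values, too small.

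Here the counts were rounded, filtered with filterByExpr, scaled by TMM and fitted with edgeR 4.0.16 (quasi-likelihood, 4 groups of 3 RNA libraries, no replicate term, 8 residual degrees of freedom, biological coefficient of variation 5.05%) in R 4.3.3 with limma 3.58.1. Standard errors were derived from the F statistic and the fold change, and intervals use a t quantile. Medians and counts over 46 lists of 986 symbols are descriptions with no list test. The reference table named 55141 of 55401 gene identifiers; where a symbol had several, the one with most counts was used. Alternatives changed the scaling, filter, threshold, margin, promoter window, samples, tool (DESeq2 1.42.0), replicate term and libraries, leaving out each in turn. Tables and plots used Python 3.11.15, pandas 2.3.3, numpy 2.4.6 and matplotlib 3.10.9.

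On simulated counts for this comparison (14460 genes, 200 of them changed, 50 per size), recovery was 68% for changes of 1.25-fold, 88% for 1.5-fold, 98% for 2-fold and 100% for 4-fold. There were 7 false calls among 184, and 95.1% of intervals held the true value. The changed genes were drawn from better-expressed genes, so recovery of genes as low as Gzma and Il22 was not measured. They were also a far smaller share than the 44.2% called in the data. The simulated spread was that of the deposited table, so these values cannot show whether that spread is too small.

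The gene lists, members and tests were chosen with earlier results of these data known. Named genes were the 12 highest and 12 lowest called genes with mean log2 CPM of at least 3 and groups that did not overlap, predicted names left out; up to 4 called members of largest change per list; a panel of 42 genes; the 8 highest genes alike within 1.5-fold in 5 immune lists; and detected cell markers. Not all of them are given, and some items are not reported here. Outside this rule, and chosen after values were seen, are the aryl hydrocarbon receptor genes other than Nqo1, and Asns, Chac1, Cth, Cbs, Ero1l, Ak4, Tnfsf10, Ltb, Csf1, Tnfsf9, Tnfsf14, Tnfsf8, Lif, Zeb2, Bach2, Klrk1, Fasn, Abca1, Abcg1, Gbp2, Irf1, H2-K1, B2m, Cd3e and Cd4. The ATF4, interferon, sterol and xenobiotic motifs were also chosen after gene values were seen. Promoters came from RefSeq (GRCm38.p6).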

Additional observations from a re-analysis of the deposited data

How the results depend on the processing

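The count of genes called was 5744 to 6634 when 1 library at a time was left out (6513 with all), with 2956 to 3439 higher and 2787 to 3196 lower; genes called with a log2 change of at least 1 numbered 851 to 959, and genes alike within 1.5-fold 8643 to 9011. With a replicate block 5941 genes were called (3081 higher, 2860 lower), 809 with a change of at least 1, and 8791 were alike. Correlations of the deviations from the group means were computed between lactate with Oxyrase and pyruvate libraries, and all were small. For libraries of the same replicate number r was -0.143, -0.139 and -0.0794, and for different numbers -0.00151 to 0.135. These values cannot show whether the replicate numbers pair the samples. The deposited table appears adjusted for replicate number, and such an adjustment removes shared deviations. DESeq2 called 6163 genes and an adjusted p of 0.01 left 4851. A filter of at least 1 CPM in 3 libraries lowered the count with a change of at least 1 from 888 to 561, as fewer genes were tested, and a narrower margin of 5/4-fold left 5460 genes alike in place of 8987 (11401 at 2-fold). The share of calls that were higher was 52.0%, between 46.0% with total counts only and 55.3% with upper quartile scaling. Of 201 called genes named by rule, 16 lost their call under at least 1 alternative and 0 changed sign. With the replicate block 2 lost it, and with DESeq2 5. A named gene that an alternative's filter dropped was not tested there and does not count as a lost call. Gzma and Il22, under 1 CPM in every library, were dropped in this way by the filter of at least 1 CPM in 3 libraries. Of 5725 genes under 3 log2 CPM 57.1% were neither called nor alike.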

Other observations

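Cell cycle and ribosome genes differed between lactate with Oxyrase and pyruvate by small amounts. Of 37 tested genes of DNA replication and nucleotide supply 22 fell and 3 rose (median change -0.16, 36 alike within 1.5-fold). Rrm1, a subunit of ribonucleotide reductase, had 321, 337 and 318 CPM with lactate and Oxyrase, against 474, 495 and 503 CPM with pyruvate. Of 30 tested mitosis genes 14 rose and 5 fell (median 0.08), and Mki67, the proliferation marker, had 1242, 1157 and 1160 CPM with lactate and Oxyrase, against 1070, 1097 and 1006 CPM with pyruvate; its call was lost without replicate 3 of pyruvate (edgeR adjusted p = 0.118) and without replicate 1 of lactate with Oxyrase (0.104). Of 41 cytosolic ribosomal protein genes 22 rose and 2 fell, all of them alike within 1.5-fold, while of 30 ribosome biogenesis genes 14 fell and 7 rose. Myc, which drives such genes, had 353, 333 and 329 CPM with lactate and Oxyrase, against 489, 512 and 511 CPM with pyruvate (change -0.57 ± 0.04). Pim2, a kinase downstream of interleukin-2 receptor signals, had 68.6, 81.0 and 77.2 CPM, against 222, 227 and 229 CPM with pyruvate, and 13 of 25 tested genes of that pathway fell and 6 rose.

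Among enzymes that use oxygen to modify chromatin and nucleic acids, 10 of 23 tested genes rose and 6 fell. Kdm4a, a histone demethylase, had 174, 144 and 153 CPM with lactate and Oxyrase, against 86.9, 93.4 and 88.0 CPM with pyruvate, and Kdm6b rose by 0.65 ± 0.07. Of 21 tested p53 targets 9 fell and 6 rose, with Zmat3 at 60.0, 82.2 and 78.0 CPM, against 127, 121 and 121 CPM with pyruvate. Txnip, which restrains glucose uptake, had 195, 164 and 175 CPM with lactate and Oxyrase, against 110, 101 and 99.6 CPM with pyruvate, and its paralog Arrdc4 rose by 1.77 ± 0.14. Of 22 TCA cycle enzymes 12 fell and 4 rose, 21 of them alike within 1.5-fold. The mitochondrial transcript mt-Co3 had 442, 189 and 214 CPM with lactate and Oxyrase, against 138, 124 and 160 CPM with pyruvate; its change was 1.00, and 0.52 without replicate 1 of lactate with Oxyrase, when it was not called (edgeR adjusted p = 0.184). That call was also lost without replicate 1 (0.0532) or 2 (0.0721) of pyruvate and with DESeq2 (0.0585).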
